A study of Mus musculus with 36 samples.

Results

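The genes described here are the cell-cycle inhibitor genes Cdkn1a, Cdkn1b, Cdkn1c, Cdkn2c and Cdkn2d and the stress-sensor genes Gadd45a, Gadd45b and Gadd45g, measured in mouse brain after repeated dosing with histone deacetylase (HDAC) inhibitors. Every probe whose gene symbol matched 1 of these 8 genes was taken, which gave 16 probes of 45281 on the array (8 of 30854 gene symbols). The genes were chosen by a rule that used measured values of the drug comparisons, so their differences from vehicle are given as a description, with no p for any of them. Counts of calls in the main fits stand beside the share of all probes, and counts in alternative settings are given without it. Differences between brain regions played no part in the choice and were tested.

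Male C57BL/6J mice (11 weeks of age in the study's methods) received 10 daily intraperitoneal injections of vehicle (saline, PEG-400 and DMSO), Cpd-60 at 45 mg/kg, SAHA at 25 mg/kg or CI-994 at 10 mg/kg. Cpd-60 is a selective inhibitor of HDAC1 and HDAC2, SAHA (vorinostat) is a hydroxamate that inhibits several HDACs, and CI-994 (tacedinaline) is a benzamide. The hippocampus (HIP), the medial prefrontal cortex (PFC) and, from the ventral striatum, the nucleus accumbens (NAc) were taken 1 hour after the last injection. For each of the 4 treatments, 6 mice were combined as 3 pools of 2 mice (pool 1, mice 1 and 2; pool 2, mice 3 and 4; pool 3, mice 5 and 6), and each pool gave 1 array in each region, 36 arrays in all. Vehicle and Cpd-60 were given in 7.5 mL/kg and SAHA and CI-994 in 5 mL/kg, so no vehicle group matches the volume of the latter pair. Since the doses differ between compounds, their values stand side by side and the compounds were not compared with each other.

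Median raw intensity lay between 82.2 and 108.3 over the 36 arrays, between 31.9% and 43.3% of probes were detected at a detection p of at most 0.01, and arrays of 1 group correlated at 0.970 to 0.994. Region markers followed the labels under vehicle: 11 of 11 striatal genes were higher in NAc than in PFC, 5 of 6 cortical genes were lower in NAc than in PFC, and 7 of 8 hippocampal genes were higher in HIP than in PFC (limma, adjusted p under 0.05). Each region was run on its own 2 BeadChips, of which the first held pools 1 and 2 of vehicle and Cpd-60 and the second held pool 3 of both. For SAHA and CI-994 the first held pool 1 and the second held pools 2 and 3. Differences of SAHA and CI-994 from vehicle are thus partly mixed with BeadChip. The labels of Cpd-60 pool 2 disagree: the title and the source name mice 3 and 4, which was used, and the description names mice 1 and 2. That pool stood apart in Cdkn1a, so the Cdkn1a and Gadd45g differences under Cpd-60 are also given without it.

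Cyclin-dependent kinases (CDKs) drive the cell cycle when bound to cyclins. The Cip/Kip inhibitors p21 (Cdkn1a), p27 (Cdkn1b) and p57 (Cdkn1c) bind cyclin-CDK complexes, and the INK4 inhibitors p18 (Cdkn2c) and p19 (Cdkn2d) bind CDK4 and CDK6. Gadd45 proteins bind PCNA, p21 and the kinase Map3k4 (MTK1), which acts upstream of p38 and JNK, and take part in active DNA demethylation; in neurons Gadd45b is also an activity-induced gene. Cdkn1a is the classic gene induced by HDAC inhibitors in cultured cells, where its promoter acts through GC boxes that bind Sp1 and Sp3, and p53, glucocorticoids and FoxO factors also induce it.

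The 250 bases before the transcription start are shown for Cdkn1a and Gadd45g, which had the largest mean differences from vehicle under Cpd-60 in the group, and for Gadd45a, which differed between regions. They are RefSeq sequences on build GRCm38.p6, written 5′ to 3′ in the direction of the gene. Capitals mark a GC box, which was searched as GGGCGG. They also mark a CCAAT box, whose name gives its letters. The TATA box was searched as TATAAA, and each motif was sought on both strands.
Cdkn1a upstream start, chr17:29090729-29090978, plus strand: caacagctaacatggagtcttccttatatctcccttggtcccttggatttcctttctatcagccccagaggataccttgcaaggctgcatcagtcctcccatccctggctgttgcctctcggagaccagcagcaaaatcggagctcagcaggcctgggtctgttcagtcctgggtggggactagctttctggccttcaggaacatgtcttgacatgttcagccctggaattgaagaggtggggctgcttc
Cdkn1a downstream start, chr17:29093519-29093768, plus strand: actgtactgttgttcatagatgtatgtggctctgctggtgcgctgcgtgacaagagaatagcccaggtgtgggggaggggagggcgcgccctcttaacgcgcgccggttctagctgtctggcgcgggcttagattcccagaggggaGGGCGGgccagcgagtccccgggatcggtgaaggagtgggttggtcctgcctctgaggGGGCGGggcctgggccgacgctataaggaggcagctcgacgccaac
Gadd45a, chr6:67037408-67037657, minus strand: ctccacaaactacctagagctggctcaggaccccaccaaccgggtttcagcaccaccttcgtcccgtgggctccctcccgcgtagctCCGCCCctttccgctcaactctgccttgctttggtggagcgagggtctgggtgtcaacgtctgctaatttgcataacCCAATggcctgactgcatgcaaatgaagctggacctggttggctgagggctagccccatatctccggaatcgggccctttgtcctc
Gadd45g, chr13:51846425-51846674, plus strand: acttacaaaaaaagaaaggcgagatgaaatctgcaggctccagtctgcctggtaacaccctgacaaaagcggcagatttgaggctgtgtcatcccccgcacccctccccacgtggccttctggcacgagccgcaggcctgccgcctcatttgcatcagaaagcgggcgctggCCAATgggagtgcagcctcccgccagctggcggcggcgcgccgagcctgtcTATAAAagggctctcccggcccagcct
The downstream Cdkn1a start held 2 GC boxes, which begin 104 and 46 bases before it, and no other searched motif, while the upstream start held none of the 3 motifs. Gadd45g held a CCAAT box beginning 78 bases and a TATA box beginning 27 bases before its start, and no GC box. Gadd45a held 1 GC box at 163 bases and 1 CCAAT box at 86 bases. Among 32851 promoters of the same length, 32.7% held a GC box, 33.8% a CCAAT box and 12.4% a TATA box. RefSeq promoters were matched for 7 of the 8 genes, with 9 starts in all, of which 6 held a GC box, 5 a CCAAT box and 2 a TATA box. A match of letters is a description of the sequence and not a measured binding site.

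All 8 genes were measured above background by at least 1 probe, and each gene is described by its brightest tested probe, with the other probes as a check. The probes ILMN_2634083 (Cdkn1a), ILMN_2708203 (Cdkn1c), ILMN_1225214 (Cdkn2d), ILMN_2742152 (Gadd45a), ILMN_2900653 (Gadd45b) and ILMN_2903945 (Gadd45g) were detected at 0.01 in 36 of 36 arrays, ILMN_2638428 (Cdkn1b) in 35 and ILMN_1228366 (Cdkn2c) in 32. The Cdkn1b probe ILMN_1228598 was detected in 0 of 36 arrays even at 0.2 and was not tested. The Cdkn1b probe ILMN_2923960 and the Gadd45b probe ILMN_1246065 were at or near background, each detected at 0.01 in 0 arrays, and the Cdkn2c probe ILMN_1215651 in 6. Of the 16 probes, 14 passed the detection filter in PFC, 14 in NAc and 13 in HIP. Levels are log2 quantile-normalized intensity, and a level of 1 probe is not set against that of another.

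Cdkn1a was the gene of the group with the largest difference from vehicle, under Cpd-60, and the size of that difference was set by which pool of animals was read. In the HIP the vehicle pools read 7.04, 7.02 and 7.09 and the Cpd-60 pools 1, 2 and 3 read 7.84, 9.34 and 7.15 (ILMN_2634083). All 3 Cpd-60 pools were above all 3 vehicle pools, as held for 5.78% of all probes tested there. Pool 2 was far above, pool 1 between and pool 3 just above. The mean difference was 1.06 (SE 0.38, n = 3 pools per group), a 2.08-fold difference. Without Cpd-60 pool 2 it was 0.44 (SE 0.15).

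In the NAc the vehicle pools read 7.64, 7.57 and 7.48 and the Cpd-60 pools 8.36, 9.30 and 7.41. Pools 1 and 2 were above all vehicle pools and pool 3 was below all of them. The difference was 0.79 (SE 0.35, n = 3), a 1.73-fold difference, and 0.32 (SE 0.24) without pool 2. In the PFC the vehicle pools read 8.32, 8.27 and 8.25 and the Cpd-60 pools 8.22, 9.11 and 8.16. There only pool 2 was above vehicle and pools 1 and 3 were below it, and the difference of 0.22 (SE 0.20, n = 3) turned to -0.09 (SE 0.11) without pool 2.

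The other 2 Cdkn1a probes gave the same order of the Cpd-60 pools, with pool 2 highest and pool 3 lowest in each of the 3 regions. ILMN_2846775 read 7.57, 8.47 and 6.94 in HIP against 6.80, 6.81 and 6.93 under vehicle, 7.73, 8.43 and 7.21 in NAc against 7.07, 7.17 and 7.15, and 7.67, 8.55 and 7.54 in PFC against 7.83, 7.80 and 7.52. Its differences were 0.81 (SE 0.27) in HIP, 0.66 (SE 0.23) in NAc and 0.20 (SE 0.23) in PFC, and without Cpd-60 pool 2 they were 0.41, 0.34 and -0.11. For ILMN_2846776 the differences were 0.58 (SE 0.28) in HIP, 0.73 (SE 0.28) in NAc and 0.26 (SE 0.20) in PFC, and without that pool 0.13, 0.37 and -0.04. In PFC the sign thus turned for each of the 3 probes. After background correction (neqc), with all pools, the difference of the brightest probe became 1.66 in HIP, 1.06 in NAc and 0.26 in PFC.

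**Figure D1:**
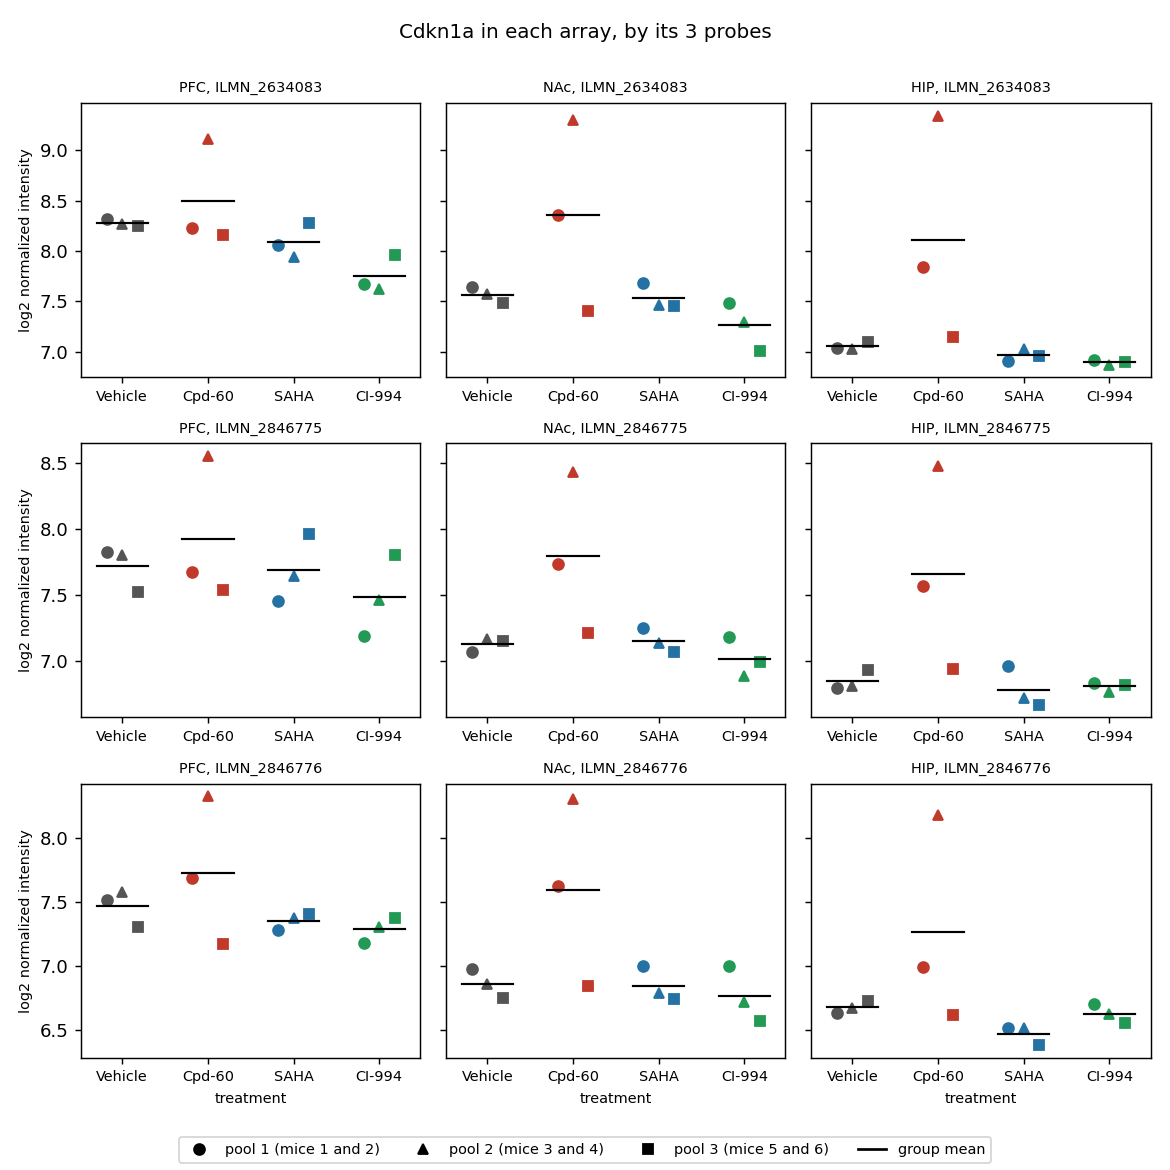
Log2 normalized intensity of Cdkn1a (y axis) in each of the 36 arrays by treatment (x axis), for its 3 probes (rows) and 3 regions (columns); point shapes mark the pool of mice and bars the mean of 3 pools. Cpd-60 pool 2 is the highest array of each panel, at 9.11 in PFC, 9.30 in NAc and 9.34 in HIP for ILMN_2634083, and Cpd-60 pool 3 lies near the vehicle pools.

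Within BeadChips, the mean of Cpd-60 pools 1 and 2 exceeded that of the vehicle pools of the same chip. The excess was 1.56 in HIP, 1.22 in NAc and 0.37 in PFC. In PFC pool 1 differed by -0.06 and pool 2 by 0.83 from the mean of all vehicle pools. Pool 3 differed from vehicle pool 3 by 0.06 in HIP, -0.07 in NAc and -0.09 in PFC. The BeadChip and the pools it held cannot be told apart within a region. In these bulk samples, more cells that express a gene and more RNA per cell cannot be told apart.

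SAHA left Cdkn1a close to vehicle by ILMN_2634083. The differences were -0.19 (SE 0.20) in PFC, -0.03 (SE 0.35) in NAc and -0.09 (SE 0.38) in HIP. In the same order ILMN_2846775 gave -0.03 (SE 0.23), 0.02 (SE 0.23) and -0.06 (SE 0.27). ILMN_2846776 gave -0.11 (SE 0.20), -0.02 (SE 0.28) and -0.21 (SE 0.28). By that probe every SAHA pool was below every vehicle pool in HIP, as held for 10.8% of all probes. It was detected at 0.2 in 0 SAHA arrays there. Under CI-994 the PFC pools read 7.67, 7.62 and 7.96, all below the vehicle pools, for a difference of -0.53 (SE 0.20, n = 3). The other 2 probes gave -0.23 (SE 0.23) and -0.18 (SE 0.20) there and their CI-994 and vehicle pools overlapped. In the HIP the CI-994 pools of 6.92, 6.87 and 6.90 were below every vehicle pool by ILMN_2634083, with a difference of -0.16 (SE 0.38). The other 2 probes gave -0.04 (SE 0.27) and -0.05 (SE 0.28) in HIP, with overlapping pools. In NAc the difference of ILMN_2634083 was -0.30 (SE 0.35) with overlapping pools. Every CI-994 pool was below every vehicle pool for 4.94% of all probes in PFC and 4.6% in HIP. The standard errors in NAc and HIP take in the wide spread of the Cpd-60 pools, because the 4 treatments of a region share 1 estimate of spread.

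Among the other Cip/Kip genes, Cdkn1c differed most, in PFC. Its vehicle pools lay between 8.28 and 8.42 there, the Cpd-60 pools 8.89, 8.58 and 8.67 and the CI-994 pools 8.95, 8.51 and 8.53. Every Cpd-60 and every CI-994 pool was above every vehicle pool, as held for 4.87% and 5.76% of all probes. Cdkn1c differed by 0.35 (SE 0.13) and 0.30 (SE 0.13), beside -0.12 (SE 0.13) under SAHA. In the NAc and HIP its differences lay between -0.14 and 0.08 under the 3 drugs and the pools overlapped. Within BeadChips the PFC difference was 0.40 and 0.25 under Cpd-60, and 0.61 and 0.10 under CI-994. Cdkn1b lay within -0.10 to 0.11 of vehicle in the 9 comparisons.

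The INK4 genes stayed close to vehicle. Cdkn2c lay between -0.15 and 0.10, with the lowest value under Cpd-60 in NAc, where its pools read 6.61, 6.68 and 6.74 against 6.90, 6.77 and 6.81 under vehicle. Those groups did not overlap, as held in that direction for 5.12% of all probes, and Cpd-60 pool 1 was not detected at 0.2. Cdkn2d lay between -0.02 and 0.18, the highest under CI-994 in HIP (SE 0.12), where the pools overlapped.

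Gadd45g was the Gadd45 gene with the largest differences. In the HIP its vehicle pools read 9.07, 9.04 and 9.17, the Cpd-60 pools 9.34, 9.31 and 9.42 and the SAHA pools 9.33, 9.43 and 9.33 (ILMN_2903945). Both drug groups were above all vehicle pools, by 0.26 (SE 0.09) and 0.27 (SE 0.09), and the CI-994 pools of 9.40, 8.96 and 9.20 overlapped vehicle. Of all probes, 5.78% under Cpd-60 and 8.45% under SAHA had every drug pool above every vehicle pool. Without Cpd-60 pool 2 the difference was 0.29, so in this region it was as large without that pool. The second probe, ILMN_2744890, gave 0.25 (SE 0.11) under Cpd-60 and 0.07 (SE 0.11) under SAHA in HIP, with overlapping pools, and 0.14 under Cpd-60 without pool 2. On the first and second BeadChip, ILMN_2903945 under SAHA differed by 0.28 and 0.21 in HIP, 0.64 and -0.37 in PFC, and -0.32 and 0.67 in NAc.

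In the PFC the vehicle pools of Gadd45g were themselves spread, at 8.25, 8.04 and 8.78, and the Cpd-60 pools read 8.58, 8.78 and 8.92, a difference of 0.40 (SE 0.18) with overlap. The second probe had vehicle pools of 7.34, 7.28 and 7.23 and Cpd-60 pools of 7.77, 7.64 and 7.29, a difference of 0.29 (SE 0.14) that was 0.25 without Cpd-60 pool 2. In the NAc the Cpd-60 differences were 0.23 (SE 0.26) and 0.31 (SE 0.16) for the 2 probes, and without Cpd-60 pool 2 they were -0.01 and 0.16. In the PFC the first probe's difference was 0.39 without Cpd-60 pool 2 and 0.24 without vehicle pool 2. The probes of Gadd45g thus gave positive differences under Cpd-60 in each of the 3 regions with all pools, and groups overlapped in all but 1 of these 6 comparisons. Every Cpd-60 pool was above every vehicle pool for 4.87% of all probes in PFC, 4.26% in NAc and 5.78% in HIP.

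Gadd45a lay between -0.15 and 0.21 of vehicle in the 9 comparisons. Its highest difference was under Cpd-60 in HIP. There pool 1 read 7.73 and pools 2 and 3 read 7.19 and 7.14 against 7.16, 7.25 and 7.02 under vehicle. The second probe, ILMN_2947568, had means of 7.18 under Cpd-60 and 7.05 under vehicle there, with overlapping pools. In PFC its means were 7.49 and 7.51. In HIP the other drugs were read as well. In the same region the CI-994 pools of 7.25, 7.32 and 7.46 were above the vehicle pools by 0.20 (SE 0.14), and the second probe gave 0.06 (SE 0.09). Every CI-994 pool was above every vehicle pool for 4.98% of all probes there. Gadd45b lay between -0.11 and 0.19, with pools of 7.43, 7.40 and 6.96 under Cpd-60 in NAc against 7.10, 7.05 and 7.07. There pools 1 and 2 were above and pool 3 below all vehicle pools, the same sides of vehicle as for Cdkn1a in that region. Pool 1 was highest for Gadd45b and pool 2 for Cdkn1a.

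**Figure D2:**
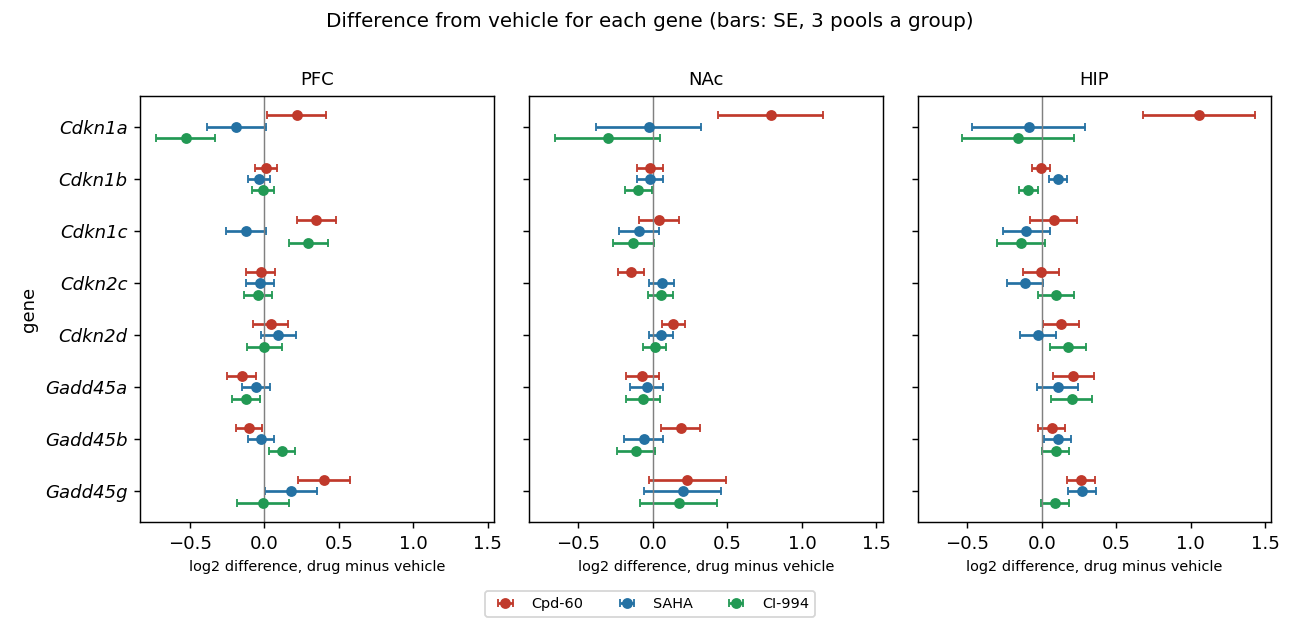
Log2 difference of each drug from vehicle (x axis) for the brightest probe of the 8 genes (y axis) in the 3 regions; points are differences of the means of 3 pools and bars the standard error. Cdkn1a under Cpd-60 lies at 0.22 in PFC, 0.79 in NAc and 1.06 in HIP, and all values of the other 7 genes lie within 0.40 of 0.

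No member probe passed an adjusted p of 0.05 against vehicle (limma, Benjamini-Hochberg over all probes tested in the region). The counts were 0 of 14 probes in PFC, 0 of 14 in NAc and 0 of 13 in HIP under each of the 3 drugs, beside 0% of all probes in all 9 comparisons (22156 probes tested in PFC, 23242 in NAc and 23275 in HIP). Without adjustment, between 463 and 2182 of all probes had a p under 0.05 in a comparison. By the thresholds in the study's methods, an unadjusted p under 0.05 with a 1.2-fold difference, 8 member probes were counted under Cpd-60, all higher than vehicle. These were Cdkn1c and ILMN_2903945 of Gadd45g in PFC (2 of 14, beside 1.11% of all probes), the 3 Cdkn1a probes in NAc (3 of 14, beside 1.78%), and 2 Cdkn1a probes with ILMN_2903945 in HIP (3 of 13, beside 1.53%). Under SAHA the counts were 0 of 14 in PFC (0.217% of all probes), 0 of 14 in NAc (0.546%) and 1 of 13 in HIP (3.17%), the last being ILMN_2903945 of Gadd45g. Under CI-994 they were 2 of 14 in PFC (0.654%), Cdkn1c higher and ILMN_2634083 of Cdkn1a lower, 0 of 14 in NAc (0.383%) and 0 of 13 in HIP (0.67%). With the pool number as a block, ILMN_2744890 of Gadd45g was counted in place of ILMN_2903945 in PFC (2 of 14) and was added in NAc (4 of 14), the comparisons in which all 3 same-numbered pools of Cpd-60 and vehicle deviated together. In HIP, where 2 of 3 such pairs correlated above 0.1, the block added ILMN_2846776 of Cdkn1a (4 of 13). Since the genes were selected on these comparisons, nothing is read from the counts. Leaving out Cpd-60 pool 2 gave 5 such probes under Cpd-60 and leaving out pool 3 gave 13, while leaving out vehicle pool 1 or vehicle pool 2 gave 4. The methods' analysis of variance with Tukey's test counted 0 member probes under each drug. It was run here on 4 treatments including CI-994, whereas the paper describes 3 treatment groups. The share of all probes called in these alternative settings is not given, so no shift of the counts is read as one of the members. With 3 pools per group, an exact permutation test of 1 probe could not go below a p of 0.1.

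The genes whose pattern was most like that of Cdkn1a over the 36 arrays, with each region set to its vehicle mean, were Chic2 (Pearson r = 0.88), the secreted protease Htra1 (0.86), the RIKEN transcript 5730543M03Rik (0.86), the mRNA-decay factor Zfp36 (0.85) and the arrestin-domain gene Arrdc4 (0.85), out of 26591 probes ranked. Without the 3 arrays of Cpd-60 pool 2 the correlations were 0.55, 0.68, 0.57, 0.69 and 0.33 over 33 arrays. Arrdc4 shows the pool pattern plainly, since Cpd-60 pools 1, 2 and 3 differed from the vehicle mean by 0.15, 0.92 and -0.03 in PFC. The 3 Cdkn1a probes correlated with each other at 0.94 to 0.96, and at 0.77 to 0.84 without that pool. Among the other 7 genes, the probe closest to ILMN_2634083 was ILMN_2744890 of Gadd45g (r = 0.58, and 0.21 without Cpd-60 pool 2). These correlations describe arrays that share animals and regions.

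Lists of related genes were read beside the group. Under Cpd-60 none of the genes on the 8 pathway lists passed an adjusted p of 0.05. The glucocorticoid-induced genes had the highest list medians, 0.33 in PFC, 0.29 in NAc and 0.33 in HIP over 19 genes each, with 19 of 19 differences above 0 in each region and a median over all probes of 0.00. This list was drawn up with results of these arrays known and holds Cdkn1a and Cdkn1c as well as genes the study picked from them (Sgk1, Tsc22d3 and Sult1a1), so it is not independent evidence of its direction. The other 7 lists had medians between -0.08 and 0.10 under Cpd-60. Over all 8 lists the medians lay between -0.11 and 0.11 under SAHA and between -0.10 and 0.11 under CI-994.

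Averaged over the 17 glucocorticoid-induced genes that are not members, Cpd-60 pools 1, 2 and 3 differed from the vehicle mean by 0.35, 0.57 and 0.14 in PFC, by 0.34, 0.60 and 0.12 in NAc and by 0.44, 0.59 and 0.08 in HIP. Pool 2 was highest and pool 3 lowest in each region, the same order as Cdkn1a. Vehicle, SAHA and CI-994 arrays lay between -0.08 and 0.12. Sgk1, a kinase gene induced by glucocorticoids, read 1.14, 0.99 and 0.11 above the vehicle mean in NAc and 1.23, 1.03 and 0.41 in HIP, so there pool 1 was at least as high as pool 2. Ddit4, an mTORC1 inhibitor gene induced by glucocorticoids and p53, read 0.85, 0.91 and -0.16 in NAc and 0.78, 1.02 and 0.18 in HIP. What part this list's level has in the Cdkn1a values was not tested.

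**Figure D3:**
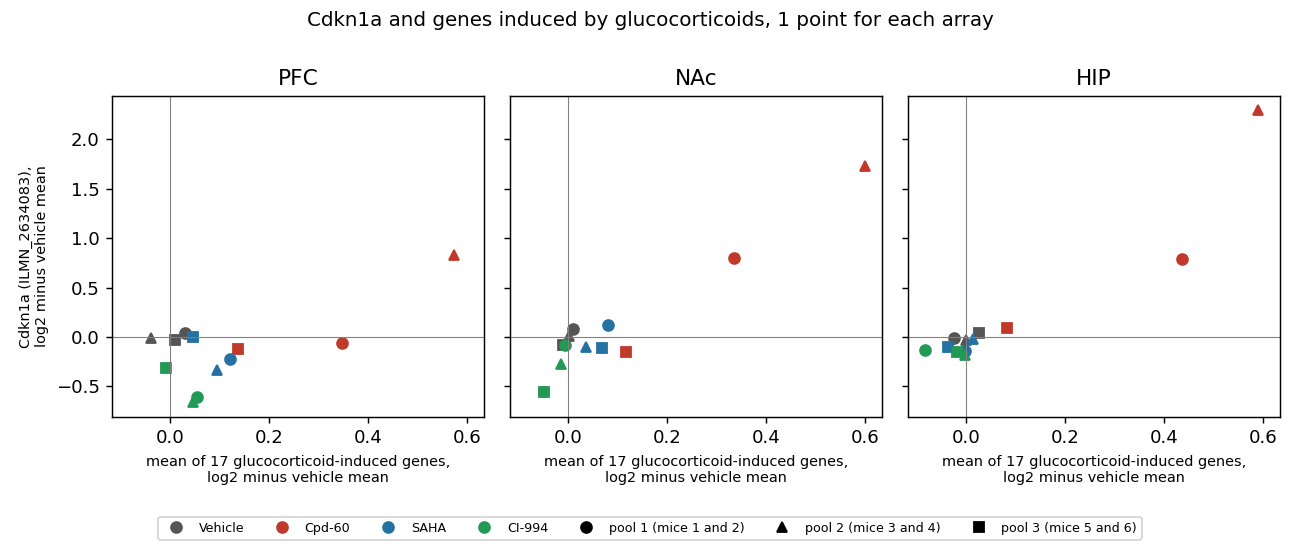
Cdkn1a (ILMN_2634083, y axis) against the mean of 17 glucocorticoid-induced genes (x axis), both as log2 minus the vehicle mean of the region, with 1 point for each array; colours mark the treatment and shapes the pool. Cpd-60 pool 2 is at the upper right in each region (0.57 and 0.83 in PFC, 0.60 and 1.73 in NAc, 0.59 and 2.29 in HIP), pool 1 is next along the x axis, and pool 3 lies near the other treatments.

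Among p53 and its targets, the list medians under Cpd-60 were 0.03 in PFC, 0.04 in NAc and 0.09 in HIP over 18 genes. Sesn1, which encodes sestrin 1, differed from vehicle by 0.45 (SE 0.16) in PFC and 0.35 (SE 0.12) in HIP, and Trp53, the p53 gene itself, by -0.25 (SE 0.09) in HIP. Ccnd1, which encodes cyclin D1, the partner of CDK4 and CDK6, differed by -0.35 (SE 0.09) in PFC, -0.18 (SE 0.18) in NAc and -0.39 (SE 0.15) in HIP. Of the FoxO targets, Txnip, which encodes a thioredoxin-binding protein, differed by 0.62 (SE 0.17), 0.65 (SE 0.22) and 0.34 (SE 0.09). The INK4 gene Cdkn2b, not in the group, was close to vehicle, at 0.00 (SE 0.07), -0.04 (SE 0.06) and -0.03 (SE 0.06). The kinases and partners of the Gadd45 proteins had medians of 0.00 over 10 genes in PFC, 0.01 over 12 in NAc and 0.07 over 11 in HIP.

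Markers of other cell types were read in the same pools. The precursors of oligodendrocytes read -0.12 to 0.00 in pool 1, -0.21 to -0.07 in pool 2 and 0.07 to 0.18 in pool 3, against the vehicle mean. Oligodendrocyte markers lay between -0.15 and 0.37 and choroid plexus markers between -0.15 and 0.49, with both highest values in pool 3. Over the 3 regions the mean endothelial marker level of the Cpd-60 pools lay between -0.08 and 0.02 of the vehicle mean, and the microglial level between -0.19 and 0.08. The astrocyte markers were 0.05 to 0.12 above the vehicle mean in pool 1, 0.19 to 0.30 in pool 2 and 0.08 to 0.30 in pool 3. Blood markers (3 haemoglobin and red cell genes tested) lay between -0.75 and 0.08. The part of these cell types in the values of the 8 genes was not tested.

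Brain regions under vehicle were compared in 1 limma model of 36 arrays that allowed arrays from the same animals to correlate (consensus correlation -0.01). Cdkn1a, Cdkn1c and Gadd45a were higher in PFC than in 1 or both of the other regions. From the HIP to the PFC, 6 of 14 member probes were lower in HIP (13.2% of all 21632 probes) and 1 was higher (13.2%). From the NAc to the PFC, 3 of 14 member probes were lower in NAc (11.5% of 20646) and 0 were higher (9.26%). Between the HIP and the NAc none of 13 member probes passed, 0 higher (7.77% of 21629) and 0 lower (9.39%). Each region lay on BeadChips of its own, so region and BeadChip cannot be told apart.

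Cdkn1a was highest in PFC and lowest in HIP. Its vehicle means were 8.28 ± 0.03 in PFC, 7.56 ± 0.08 in NAc and 7.05 ± 0.04 in HIP (SD, n = 3, ILMN_2634083). No vehicle pool of 1 region overlapped those of another. The share of all probes without such overlap is not given, so this is not read as particular to Cdkn1a. The HIP was 1.23 below the PFC (SE 0.36, limma adjusted p = 0.0131), a 2.34-fold difference, and the other probes gave -0.87 (SE 0.28, adjusted p = 0.0215) and -0.79 (SE 0.29, adjusted p = 0.0444). The NAc differed from the PFC by -0.72 (adjusted p = 0.166) and the HIP from the NAc by -0.51 (adjusted p = 0.365), which did not pass. These errors come from all 36 arrays and so take in the spread of the Cpd-60 pools. In a fit of the 9 vehicle arrays alone, an alternative chosen after seeing the data, the difference of the HIP from the PFC had an adjusted p of 1.56e-06. Leaving out vehicle pool 1, 2 or 3 in the fit of all arrays gave adjusted p-values of 0.0991, 0.101 and 0.0601 for ILMN_2634083, and the call of ILMN_2846776 was also lost with no detection filter (adjusted p = 0.0885).

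The order held in nearly all pools of animals. The PFC was above the HIP in 11 of 12 pools and above the NAc in 10 of 12. The share of all probes with such an order is not given, so the counts of pools are a description. Under Cpd-60 the regional means came closer, at 8.50 in PFC, 8.35 in NAc and 8.11 in HIP, and in Cpd-60 pool 2 the levels of 9.11, 9.30 and 9.34 ran the other way. Summed endothelial marker intensity under vehicle was 2190 to 2293 in PFC, 1905 to 2201 in NAc and 1831 to 1932 in HIP, and 3 of 9 endothelial genes were lower and 1 higher in HIP than in PFC. Summed oligodendrocyte markers were 9571 to 11705 in PFC, 16723 to 21555 in NAc and 26696 to 29839 in HIP, with 9 of 9 genes higher in each of the other regions than in PFC. Summed choroid plexus markers were 843 to 1338 in PFC, 1102 to 1245 in NAc and 3264 to 11580 in HIP, a wide spread among the HIP pools. Oligodendrocyte precursor markers were 1555 to 1794, 2204 to 2506 and 3019 to 3482 in the same order. Astrocyte markers were 15812 to 16474, 14731 to 15277 and 17578 to 19366. The part of these cell types in the levels of Cdkn1a and the other genes was not tested.

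Cdkn1c was also highest in PFC. Its vehicle means were 8.36 ± 0.08 in PFC, 7.58 ± 0.19 in HIP and 7.23 ± 0.25 in NAc (SD, n = 3). The NAc was 1.13 below the PFC (SE 0.16, limma adjusted p = 3.24e-06) and the HIP 0.79 below it (SE 0.16, adjusted p = 0.00058). The HIP was 0.35 above the NAc (SE 0.16, 95% interval 0.02 to 0.67), which did not pass over all probes (limma adjusted p = 0.139). In all 12 pools of animals the order was PFC, HIP, NAc, and the share of all probes with 1 order throughout is not given.

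Gadd45a was also higher in PFC, by both of its probes. Vehicle means were 7.84 ± 0.15 in PFC, 7.20 ± 0.18 in NAc and 7.14 ± 0.11 in HIP (SD, n = 3; ILMN_2742152), 0.63 (SE 0.12, limma adjusted p = 0.000402) and 0.69 (SE 0.12, adjusted p = 0.000176) below the PFC. The second probe gave -0.49 (SE 0.08, limma adjusted p = 7.05e-05) and -0.46 (SE 0.08, limma adjusted p = 0.000249). P-values here measure the spread between pools of 2 mice. Between HIP and NAc the difference was -0.06, with a 95% interval from -0.32 to 0.19. The PFC was above the NAc in 12 of 12 pools of animals by both probes, and the share of all probes that do so is not given.

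Gadd45g ran the other way by 1 probe only. ILMN_2903945 read 8.36 ± 0.38 in PFC, 8.78 ± 0.25 in NAc and 9.09 ± 0.07 in HIP (SD, n = 3), and the HIP was 0.73 above the PFC (SE 0.20, limma adjusted p = 0.00912). That call was lost without vehicle pool 1 (adjusted p = 0.0844) or vehicle pool 2 (0.134). ILMN_2744890 read 7.28 ± 0.05, 7.26 ± 0.18 and 7.22 ± 0.14 in the same arrays and differed by -0.07 (SE 0.15, adjusted p = 0.784), so the probes disagree on the region difference. Gadd45b was 0.21 lower in both other regions than in PFC (adjusted p = 0.151 for the HIP and 0.184 for the NAc). Cdkn1b, Cdkn2c and Cdkn2d differed by 0.19 or less in each comparison, and none passed the test.

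**Figure D4:**
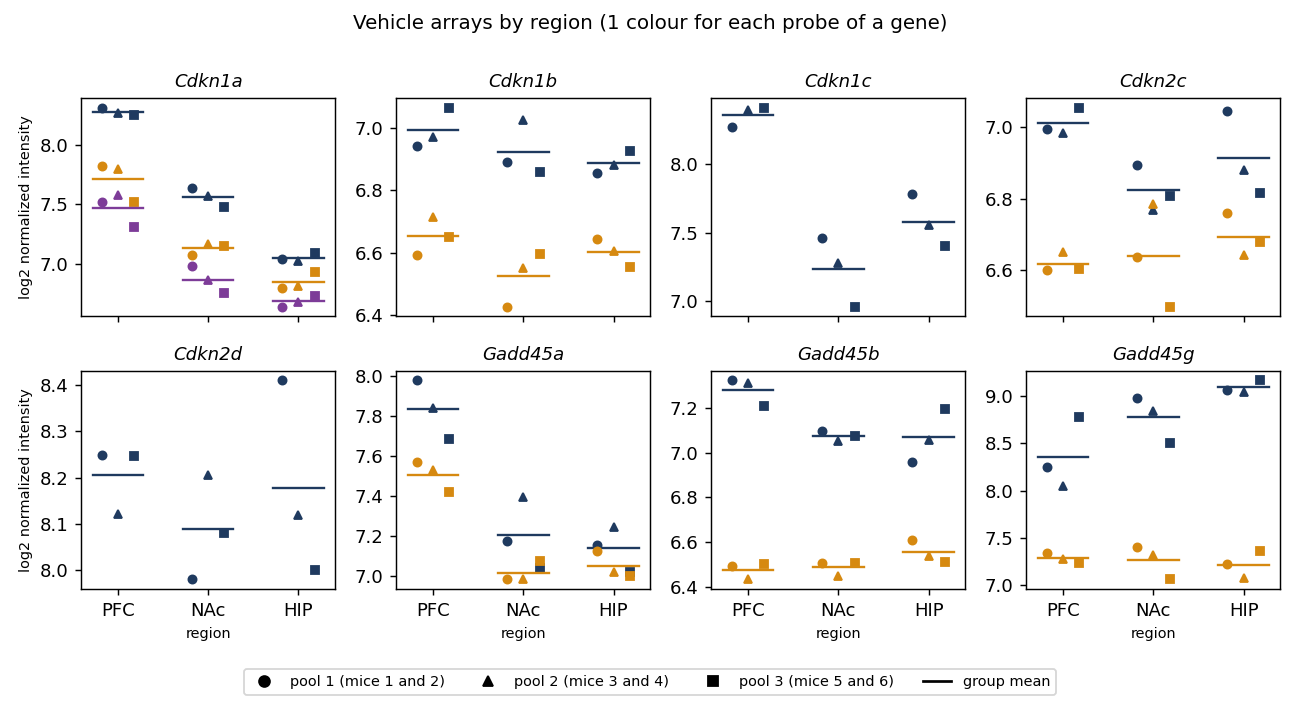
Log2 normalized intensity of the 8 genes (y axis) in the 3 vehicle pools of each region (x axis); colours mark the probes of a gene, shapes the pool and bars the mean of 3 pools, and the y axes differ between genes. Cdkn1a, Cdkn1c and Gadd45a are highest in PFC, while the brighter Gadd45g probe is highest in HIP and its dimmer probe is level.

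Lists of genes around the group were read between regions under vehicle, beside the share of all probes called. Of the kinases and partners of the Gadd45 proteins, 5 of 10 were lower in HIP than in PFC (13.2% of all probes) and 0 were higher (13.2%). Mapk11, which encodes p38 beta, was 1.11 lower (SE 0.11, limma adjusted p = 3.58e-08) and Mapk8, which encodes JNK1, was 0.85 lower (SE 0.09, adjusted p = 5.51e-08). In the NAc 5 of 10 were lower than in PFC (11.5%) and 0 higher (9.26%), with Mapk11 at -1.50 (SE 0.11, adjusted p = 3.86e-11). The list medians were -0.33 and -0.27, beside -0.03 and -0.01 over all probes.

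Among the cyclins, CDKs and Rb/E2F genes, 2 of 14 were higher and 2 lower in HIP than in PFC, close to the 13.2% of all probes called in each direction. Rb1, the retinoblastoma gene, was 1.02 higher (SE 0.21, limma adjusted p = 0.00071) and the E2F factor gene E2f1 was 0.81 lower (SE 0.06, adjusted p = 1.38e-10). In the NAc 5 of 14 were lower than in PFC (11.5% of all probes), E2f1 by 0.68 (SE 0.06, adjusted p = 1.92e-09) and cyclin E1 (Ccne1) by 0.52 (SE 0.13, adjusted p = 0.00349). The proliferation list had 5 genes of 16 above the detection filter in the comparison of HIP and PFC, and Mcm6, a subunit of the replicative helicase, was 0.53 higher in HIP (SE 0.11, adjusted p = 0.000742).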

How the data were processed

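RNA from PFC, NAc and HIP was hybridised to Illumina MouseWG-6 arrays, 36 in all. The deposited table holds intensity values per probe that the authors had not normalized. A detection p-value for each probe and array was deposited beside it. The software that wrote it is not given in the sources used here. Intensities were quantile-normalized over 36 arrays, floored at 1 and put on the log2 scale, in that order (R 4.3.3, limma 3.58.1). Tables and figures were made with Python 3.11.15, pandas 2.3.3 and matplotlib 3.10.9. A probe was tested where some compared group had all 3 of its arrays at or under a detection p of 0.2. Drugs were compared with vehicle within each region (limma, 4 treatments per fit). Regions were compared under vehicle in 1 fit of 36 arrays with the animal pool as a random block. Pool numbers come from the mouse numbers in the labels; deviations of same-numbered drug and vehicle pools correlated above 0.1 in all 3 pairs for Cpd-60 in PFC (0.16 to 0.55) and NAc (0.33 to 0.71), in 15 of 27 pairs over the 9 comparisons, and these Cpd-60 and vehicle pools also share BeadChips. Benjamini-Hochberg adjustment ran over all probes tested. Models were tested on simulated data. The members and lists were chosen with earlier results of these data known. A gene was given by its brightest tested probe, the 5 genes most correlated with Cdkn1a were named, and up to 3 genes of a list were named by size of difference among those past the threshold, or among all where none passed. Endothelial, oligodendrocyte and other marker lists were read as sums and counts. Alternatives were neqc, other detection filters, BeadChip and pool blocks, the methods' test, other sets of arrays and leaving out each pool. The number of arrays limits precision.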

Additional observations from a re-analysis of the deposited data

Results flagged for a closer look

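The brightest probe of each of the 8 genes was scanned under each of the 3 drugs. In 3 cases every treated pool was above the vehicle mean in 1 region and below it in another. The difference between the regions was not tested. The share of all probes that do the same is not given, so nothing is read from this count. Cdkn1c under CI-994 differed from vehicle by 0.296 in PFC and by -0.131 in NAc (log2, 3 pools per group). On the first and second BeadChip it differed by 0.61 and 0.10 in PFC and by -0.27 and 0.14 in NAc. Gadd45a under Cpd-60 differed by -0.153 in PFC and by 0.214 in HIP. On the first and second BeadChip the values were -0.28 and 0.09 in PFC and 0.26 and 0.12 in HIP. The HIP difference was 0.02 without Cpd-60 pool 1. These Gadd45a values are of ILMN_2742152. The second probe, ILMN_2947568, had PFC means of 7.49 under Cpd-60 and 7.51 under vehicle. Its Cpd-60 pools there ran from 7.39 to 7.62, on both sides of its vehicle mean. In HIP its means were 7.18 and 7.05. Gadd45b under SAHA differed by -0.0244 in PFC and -0.0624 in NAc, and by 0.108 in HIP. On the first and second BeadChip it differed by -0.04 and 0.04 in PFC, -0.04 and -0.07 in NAc, and 0.128 and 0.004 in HIP.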

How the results depend on the processing

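The count of member probes past an adjusted p of 0.05 against vehicle was 0 under each drug in every alternative run. By an unadjusted p under 0.05 with a 1.2-fold difference, Cpd-60 had 8 probes. It had 10 under a replicate block for the pool number, 0 by the methods' analysis of variance with Tukey's test (run on 4 treatments) and 4 to 13 when 1 pool was left out. SAHA had 1, with 1 under the block, 3 with neqc, 0 by the methods' test and 0 to 2 leaving out a pool, and CI-994 had 2, with 2 under the block, 1 with neqc, 0 by the methods' test and 0 to 3 leaving out a pool. By comparison, the block gave 2, 4 and 4 under Cpd-60 in PFC, NAc and HIP beside 2, 3 and 3 without it, and changed no count of member probes under SAHA or CI-994. Between regions under vehicle, the HIP and PFC differed in 7 probes (3 to 7 leaving out a pool, 3 without vehicle pool 1 or 2). The NAc and PFC differed in 3 probes, with 6 in the 9 vehicle arrays alone (chosen after seeing the data), 11 averaged over the 4 treatments and 3 to 6 leaving out a pool. The HIP and NAc differed in 0 probes, with 2, 3 and 0 to 1 in the same settings. Of 200 alternative values for the 10 region differences called, 181 kept their call, 19 lost it and 0 reversed. Many of these settings leave out a drug pool, which changes no vehicle mean and acts only through the shared spread and the adjustment. The number kept is thus no measure of how firm a call is. The HIP and PFC call of ILMN_2634083 (Cdkn1a) was lost on leaving out vehicle pool 1, 2 or 3. The share of all probes called in the alternative settings is not given, so no shift of a count is read as one of the members. The causes were not tested.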
